A study of Mus musculus with 4 samples.

Results

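The strongest Ago2-bound features of genes with 1 or 2 listed features were examined in mouse B cell progenitor lines, as 379 features of 360 genes out of 2548 features in the authors' deposited table. A feature here is 1 entry of that table, a stretch of RNA in which Ago2-bound reads had piled up, listed under a gene. Members were chosen by level: a deposited mean over the 4 libraries of 15 or more normalized reads, in a gene with at most 2 listed features. The 3 rows that repeat another row exactly and the 8 rows for Bim seeds were dropped first. That left 495 features at or above the mean, of which 400 lay in genes with 1 or 2 features, and 21 of those were left out by gene name. Genes with 1 listed feature gave 243 members and genes with 2 gave 136. All 360 gene identifiers matched the RefSeq gene table of GRCm38.p6, and all 360 genes are protein coding there.

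The lines were wild type or Bim3'UTRmut/mut, homozygous for a mutated 3' UTR of Bim, with 2 biological replicates of each. Every line was derived from fetal liver at E14.5, a mid-gestation stage, and transformed with a retrovirus coding for the v-Abl kinase, so both genotypes carry the oncogene and neither is a primary B cell progenitor. Each received 500 µM 4-thiouridine, a photoreactive nucleoside, for 5 hours. Ultraviolet light at 365 nm then crosslinked RNA to protein, and Ago2 was immunoprecipitated with its RNA trimmed by RNase T1 at 10 U/µl for 10 minutes, the procedure called PAR-CLIP. Only Ago2-bound reads were available, so binding and transcript amount cannot be told apart. Likewise, fewer cells of a type and less RNA per cell cannot be told apart.

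Ago2 is an Argonaute protein that holds a microRNA and uses it to find target transcripts. Bases 2 to 8 of the microRNA, the seed, pair with a matching site, most often in the 3' UTR, and the target is then translated less or degraded. B cell progenitors are known for high levels of the miR-17, miR-19 and miR-92 seed families, which come from shared primary transcripts and restrain Bim, a protein that promotes apoptosis. The mature sequences below are shown because the gene lists used further on are named for these families. The seed stands in capitals, and all were taken from RefSeq with build GRCm38.p6.
mmu-miR-17-5p: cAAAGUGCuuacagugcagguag
mmu-miR-20a-5p: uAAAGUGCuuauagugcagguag
mmu-miR-106b-5p: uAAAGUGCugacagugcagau
mmu-miR-19b-3p: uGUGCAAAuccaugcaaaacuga
mmu-miR-92a-3p: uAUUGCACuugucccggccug
mmu-miR-25-3p: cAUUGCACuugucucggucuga
mmu-let-7a-5p: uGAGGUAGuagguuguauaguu
mmu-miR-16-5p: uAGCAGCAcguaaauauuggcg
mmu-miR-142a-3p: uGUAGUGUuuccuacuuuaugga
mmu-miR-181a-5p: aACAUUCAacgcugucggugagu
mmu-miR-155-5p: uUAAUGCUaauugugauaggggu
The first 3 share the seed AAAGUGC and so would pair with the site GCACUUU. miR-92a and miR-25 share AUUGCAC, which pairs with GUGCAAU. The sequences of the features themselves were not used here, so no member was searched for a seed match and no member is assigned to a microRNA by sequence.

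The deposited table gives 1 mean per feature, and the whole reads behind each mean were recovered for every library. Wa and Wb are the libraries that the authors compared as wild type, Ma and Mb those they compared as mutant, the mutant side. Which biological replicate each one is remains unknown. Over the listed features, Wa summed to 160207 reads, Wb to 38804, Ma to 24625 and Mb to 14539. Reads were divided by size factors of 3.68, 1.09, 0.618 and 0.452 to give normalized reads. One read is therefore worth 0.272 normalized reads in Wa but 2.21 in Mb. Each interval is an exact 95% Poisson interval that covers no more than counting error. Levels are reads per feature and not per length.

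Library Mb stood apart from the other 3 among the members. Their share of listed reads in Wa, Wb, Ma and Mb was 58.2%, 57.5%, 58.3% and 40.8%. Across the 379 members, the log2 levels of Wa correlated with those of Wb at r = 0.77 and with those of Ma at 0.90, and Wb correlated with Ma at 0.71. The values with Mb were -0.14 for Wa, 0.03 for Wb and -0.10 for Ma. These correlations describe features of shared libraries, which are not independent, and the choice of members by their mean over the same libraries enters them. Over all 2548 features the correlations with Mb were 0.14, 0.26 and 0.22. Of the 4 libraries, Mb had the fewest reads, with a median of 8 per member against 135 in Wa.

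Mb also differed in markers of cell type. The 23 B progenitor marker names matched 5 features of 4 genes, Rag1, Il7r, Bach2 and Sox4, whose summed levels in Wa, Wb, Ma and Mb were 87.2, 69.1, 53.4 and 17.7 normalized reads. Rag1 and Il7r held 0 reads in Mb, which allows up to 6.63 normalized reads, above their level in any other library. Sox4 held 43.2, 15.7, 24.3 and 13.3, so Mb was near Wb. The higher Bach2 feature held 25.3, 27.6, 14.6 and 2.21. A low value in Mb was not particular to these markers, since Mb was the lowest library for 61.7% of members. The 15 stromal names matched 6 features of 4 genes, Vim, Pdgfra, Ctgf and Thbs1, whose sum was 4.08, 7.37, 9.71 and 466.5. Pdgfra, Ctgf and Thbs1 held 0 reads in Wa, Wb and Ma. Of the 7 names in the endothelial or platelet list, only F3, the tissue factor gene, matched, so the list as a whole was not represented. Both listed features of F3 summed to 0.272, 0.921, 1.62 and 128.2. None of the hepatocyte, erythroid, myeloid or T cell marker names matched a feature in the table as used here, and neither did Cd79a, Vpreb1, Igll1, Ebf1 or Pax5. The part of these markers in the results below was not tested, and values without Mb, or of Ma and Mb apart, are given beside the counts and medians that move with it.

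Elovl5, which encodes a fatty acid elongase of polyunsaturated fatty acid synthesis, had the highest mean of the members at 442.5 normalized reads (Entrez gene 68801). Wa, Wb, Ma and Mb gave it 2944, 356, 353 and 32 reads, or 800.0, 327.9, 571.4 and 70.8 normalized reads. The lowest wild-type library lay below Ma and above Mb, so the genotypes overlapped. In the authors' deposited table the log2 fold change, mutant over wild type, was -0.71 with a derived SE of 1.01 (p = 0.483, 1.00 after Benjamini-Hochberg adjustment). It was 0.12 in a limma voom fit of the recovered reads without Mb.

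Zfp84 (Entrez gene 74352), a zinc finger protein gene, followed at a mean of 414.0, with 358.4, 611.6, 548.7 and 137.1 normalized reads in Wa, Wb, Ma and Mb. Its highest value was in Wb and its lowest in Mb, so the genotypes overlapped here too.

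Laptm4a (Entrez gene 17775), a lysosomal membrane protein gene, had the highest mean of the members whose top library was Mb. Its levels in Wa, Wb, Ma and Mb were 215.8, 386.0, 246.0 and 453.2 normalized reads. Gab1, the docking adaptor that links receptor tyrosine kinases to PI3 kinase and SHP2, held 448.9, 334.4, 320.5 and 75.2. Klf9, a Krüppel-like transcription factor gene, held 483.7, 204.5, 406.3 and 68.5. In Gab1 and Klf9 alike Mb was the lowest library, and Ma lay near or between the wild-type values.

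Lurap1l, an adaptor gene of actomyosin regulation listed as D4Bwg0951e, was a strong member through Mb alone. It held 173 reads in Mb, 382.5 normalized reads, against 2 reads in Wa and 0 in Wb and Ma. A count of 0 allows up to 2.76 normalized reads in Wb and 4.86 in Ma. The authors' deposited table gives it a log2 fold change of only 1.24 (p = 0.0482, 0.563 after Benjamini-Hochberg adjustment), below that of Pkd2, at 5.57 with 76 reads in Mb. Deposited fold changes therefore do not rank features by size where the reads lie in 1 library. Without Mb the mean of Lurap1l over the other 3 libraries was 0.181.

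Also among the 12 highest were Znfx1, Rhebl1, Pcmtd1, Smad5 and Mitd1. Znfx1, an RNA helicase gene of antiviral defence, was the most even of the 12, with 296.2, 277.3, 265.4 and 218.9 normalized reads. Rhebl1, a small GTPase gene related to Rheb, had 294.3, 291.1, 403.0 and 28.7. Smad5, a transducer of BMP signals, had 346.5, 297.5, 327.0 and 22.1. Wa, Wb and Ma were thus close together for Smad5, while Mb held 10 reads against 202 in Ma. Mitd1, which acts with ESCRT-III in the last step of cell division, had 300.8, 207.3, 351.2 and 70.8. Pcmtd1, a gene for a methyltransferase-like protein, had 574.5, 31.3, 386.8 and 2.21, so it was high in Wa and Ma and low in Wb and Mb. Mb was the lowest library for 10 of the 12 highest members and for 27 of the 30 highest.

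**Figure D1:**
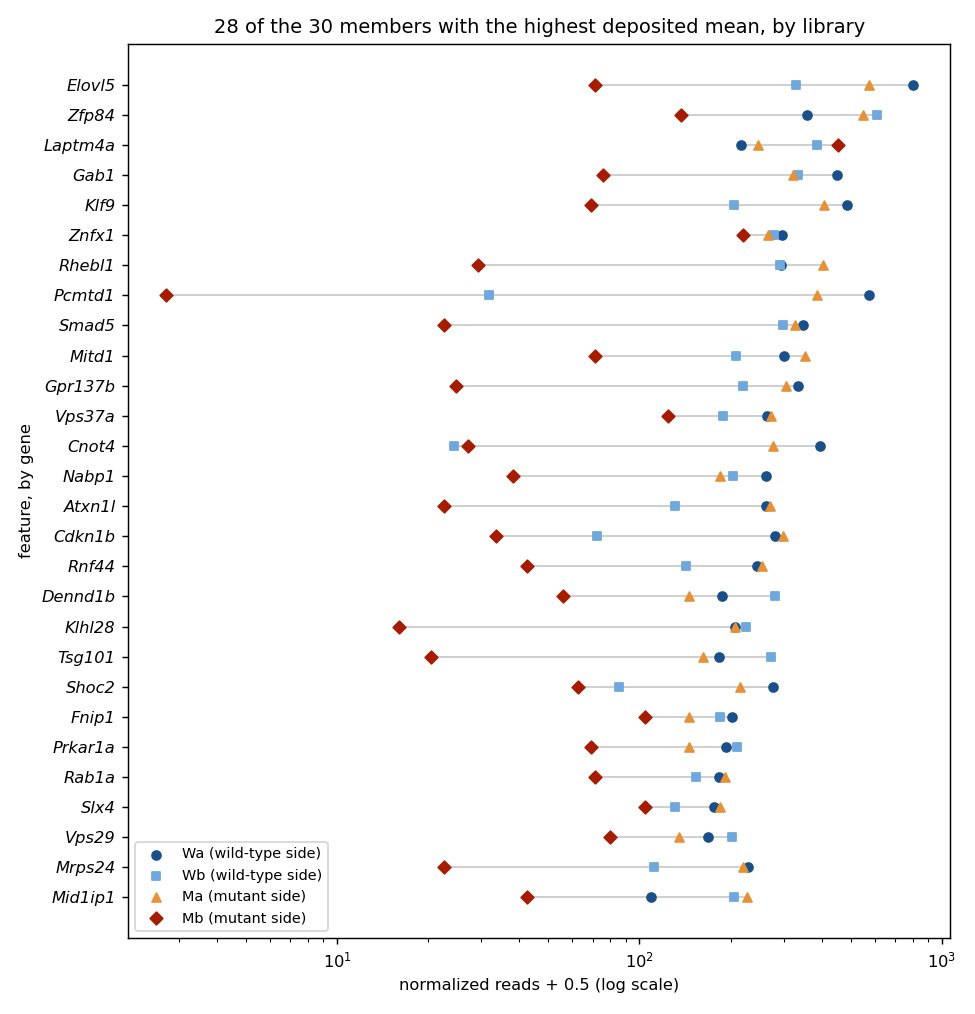
Normalized reads (0.5 added, log scale) of 28 of the 30 members with the highest deposited mean, 1 row a feature and 1 point a library. Mb is the lowest point in 26 of the 28 rows, and it is the highest point for Laptm4a.

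Over all members the median levels in Wa, Wb, Ma and Mb were 36.7, 31.3, 34.0 and 17.7 normalized reads. Over all 2548 features the medians were 3.53, 3.68, 3.24 and 4.42, so Mb was the lowest median among the members and the highest in the table as a whole. In the 95 features at or above the same minimum mean in genes with 3 or more features, the median in Mb was also 17.7, against 35.9, 30.4 and 29.1 in Wa, Wb and Ma. Mb was the lowest library for 234 members (61.7%) and for 33.7% of all features, but also for 61.1% of those 95. It was also the highest library for 83 members, so the members held features of both kinds. The median ratio of a member to its wild-type mean was -0.07 on the log2 scale in Ma and -1.35 in Mb. Over all features these medians were -0.15 and -0.29, and over the 95 they were -0.10 and -1.10.

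**Figure D2:**
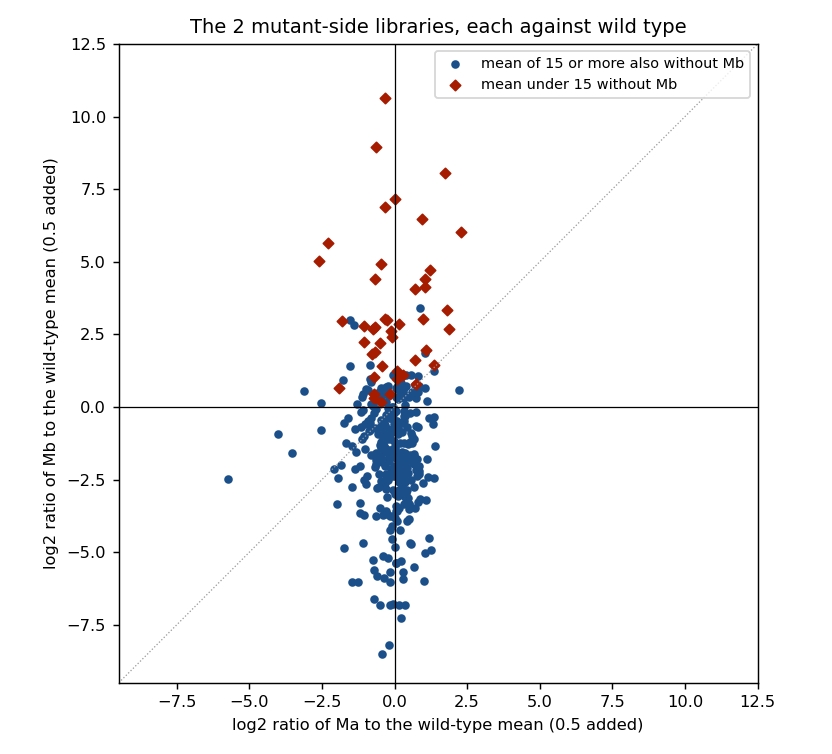
Log2 ratio of Ma (horizontal axis) and of Mb (vertical axis) to the wild-type mean, 0.5 added, 1 point a feature. Members centre near 0 for Ma (median -0.07) and below 0 for Mb (median -1.35), with a group of members far above 0 for Mb only.

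The levels of the members ran from 15.1 to 442.5, with a median of 31.6. A mean of 30 or more was reached by 207 members, 100 or more by 49 and 200 or more by 14. The lowest members were Nup50 at 15.3, a nucleoporin gene, Mat2a at 15.2, the methionine adenosyltransferase gene, and Mtmr3 at 15.1, a phosphoinositide phosphatase gene. Just under the minimum were Ubn2 at 14.97 and the second feature of Mycn at 14.95. The ratio of the highest to the lowest library, with 0.5 added to both, had a median of 5.06. It was under 2 for 58 members and over 10 for 109.

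Cdkn1a was among the most even members. It encodes the cyclin-dependent kinase inhibitor p21 and is a known target of the miR-17 family. Its feature held 72, 26, 11 and 8 reads, or 19.6, 23.9, 17.8 and 17.7 normalized reads, a spread of 1.34-fold. Kif5b, a kinesin motor gene, held 20.4, 24.9, 19.4 and 22.1, a spread of 1.27-fold. Zfp275, a zinc finger protein gene, held 84.2, 63.6, 71.2 and 73.0, and Tent4a, a noncanonical poly(A) polymerase gene, held 53.5, 56.2, 45.3 and 42.0. For each of these genes the interval of Mb included the level of both wild-type libraries.

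At the other end, 23 members held 0 reads in Mb. Ppp1r16b, which encodes a regulatory subunit of protein phosphatase 1, had 794, 163 and 84 reads in Wa, Wb and Ma, or 215.8, 150.1 and 136.0 normalized reads. Mycn, a MYC family transcription factor gene, had 485, 175 and 79 reads, or 131.8, 161.2 and 127.9. A count of 0 in Mb allows up to 6.63 normalized reads, and the wild-type means of all 23 members were above that, from 14.6 to 183. The rule largely fixed this, since a member at 0 in Mb must be high elsewhere to reach the minimum mean. Dusp2, a phosphatase of MAP kinases, P2ry10b, a G protein-coupled receptor, Fli1, an ETS transcription factor, and Tle4, a corepressor, were among the 23. The other libraries were rarely at 0, in 1 member for Wa, 5 for Wb and 6 for Ma.

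Members of lipid metabolism formed a group that was chosen after its values were seen. Beside Elovl5 it held Scd1, the stearoyl-CoA desaturase gene, with 168.2, 91.2, 192.6 and 4.42 normalized reads in Wa, Wb, Ma and Mb. Mylip, also called Idol, is a ubiquitin ligase gene controlled by sterol levels, and its higher feature held 183.4, 84.7, 147.3 and 22.1. The second feature of Mylip held 47.3, 20.3, 51.8 and 48.6, lowest in Wb. Stard4, a carrier of cholesterol between membranes, held 43.2, 23.9, 12.9 and 11.1, and both mutant-side libraries lay below both wild-type ones. Acsl1, a fatty acyl-CoA synthetase gene, held 45.6, 31.3, 55.0 and 2.21.

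A second group chosen in the same way was endosomal sorting. Tsg101, Vps37a and Ubap1 encode subunits of ESCRT-I, which sorts ubiquitylated cargo into multivesicular bodies. Tsg101 had 182.3, 272.7, 161.9 and 19.9 normalized reads, and Vps37a had 263.1, 188.8, 271.9 and 123.8. Ubap1 had 48.6, 111.5, 51.8 and 22.1. Mb was the lowest library for each of them, at 9, 56 and 10 reads. Vps29 and Vps26a, subunits of the retromer that returns cargo from endosomes, had means of 146.0 and 18.2, and Vps26a was highest in Mb at 24.3 against 14.4 and 14.7 in Wa and Wb.

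Some members followed Wa and Ma and were low in Wb as well as Mb. Rrm2, the small subunit gene of ribonucleotide reductase, which makes deoxynucleotides, held 434 reads in Wa and 87 in Ma but 6 in Wb and 1 in Mb. Mcm7, a subunit gene of the replicative helicase whose intron hosts the miR-106b, miR-93 and miR-25 cluster, held 226, 2, 16 and 1 reads. Cnot4, a ubiquitin ligase gene linked to the CCR4-NOT deadenylase, held 396.2, 23.9, 275.2 and 26.5 normalized reads. Cdkn1b, which encodes the kinase inhibitor p27, held 279.9, 71.8, 297.8 and 33.2. Wa and Ma were the 2 highest libraries for 138 members, more than any other pair, a count made for the members only. In these 4 genes the 2 libraries of each genotype differed from each other by more than the genotypes did. That follows from the choice, since the genes were grouped by this pattern after their values were seen.

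Other members were read mostly in Wb. Lifr, the receptor gene for leukaemia inhibitory factor, held 236 reads in Wb but 29 in Wa, 1 in Ma and 9 in Mb. Tead1, a transcription factor gene of the Hippo pathway, held 12.2, 150.1, 6.47 and 26.5 normalized reads, and Osbpl8, an oxysterol-binding protein gene, held 4.62, 63.6, 1.62 and 17.7. Lif, the ligand of Lifr, did not share this pattern, with 63.0, 142.8, 153.8 and 17.7. These genes were chosen after their values were seen.

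Both listed features were members for 19 genes, so features listed under 1 gene could be set side by side. Whether both lie on 1 transcript is not known here. The deposited log2 fold changes of the pair had the same sign in 13 genes and opposite signs in 6, namely Znfx1, Rab1a, Mylip, Rest, Pdzd8 and Peak1. The gap within a pair had a median size of 0.73 and exceeded 1 in 8 genes. Both features of a gene come from the same libraries, so they are not replicates.

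In Mylip the second feature took 20.5%, 19.3%, 26.02% and 68.8% of the reads of the pair in Wa, Wb, Ma and Mb. The exact 95% binomial interval in Mb ran from 50.0% to 83.9%, on 32 reads. In Rab1a, a small GTPase gene of transport from endoplasmic reticulum to Golgi, the shares were 9.91%, 8.24%, 4.84% and 46.7%, with an interval from 33.7% to 60% in Mb. Its features held 182.9, 153.8, 191.0 and 70.8 normalized reads, and 20.1, 13.8, 9.71 and 61.9. The second feature was thus highest in the library where the first was lowest. Its mean over Wa, Wb and Ma was under 15, however, so only its level in Mb made it a member.

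Pik3ca encodes the catalytic subunit p110alpha of PI3 kinase. Its second feature took 40.9%, 41.7% and 39.7% of the reads in Wa, Wb and Ma and 84.6% in Mb, where the pair held 13 reads and the interval ran from 54.6% to 98.1%. Pdzd8, a tether gene between endoplasmic reticulum and other membranes, had shares of 8.60%, 21.9%, 40.6% and 85.0%. Here both mutant-side libraries exceeded both wild-type ones, though the interval in Ma, from 23.7% to 59.4%, overlapped that in Wb, from 9.28% to 40.0%. The second feature of Pdzd8 also had a mean under 15 once Mb was left out. Arpp19, whose product inhibits protein phosphatase 2A at mitosis, had 9.75%, 8.57% and 11.4% in Wa, Wb and Ma and 0 of 10 reads in Mb, an interval up to 30.9%.

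Znfx1, the most even of the strongest members, showed its second feature at 8.97, 8.29, 22.7 and 24.3 normalized reads in Wa, Wb, Ma and Mb, while its first was at 296.2, 277.3, 265.4 and 218.9. The second feature was higher in both mutant-side libraries and took 7.87% and 10% of reads there, against 2.94% and 2.90%. The exact binomial interval in Wb, from 1.34% to 5.44%, overlapped those in Ma, from 4.37% to 12.8%, and Mb, from 5.10% to 17.2%. The interval in Wa, from 2.03% to 4.10%, lay below those in Ma and Mb. The second feature of Znfx1 also had a mean under 15 once Mb was left out, so its level in Mb made it a member. In the authors' deposited table the log2 fold changes were -0.23 for the first and 1.33 for the second, with Benjamini-Hochberg adjusted p of 1.00 and 0.675. Kpna6, an importin gene, had -0.10 and -0.86 in the authors' deposited table, Rapgef6, an exchange factor gene for Rap GTPases, had -0.01 and -0.70, and Arpp19 had 0.09 and 0.22. For Mylip the values were -0.58 and 0.52, and for Rab1a -0.34 and 0.93. The sign for both features of Rab1a and Arpp19, and for the first feature of Mylip, Kpna6 and Rapgef6, differed in at least 1 fit that left out a library.

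**Figure D3:**
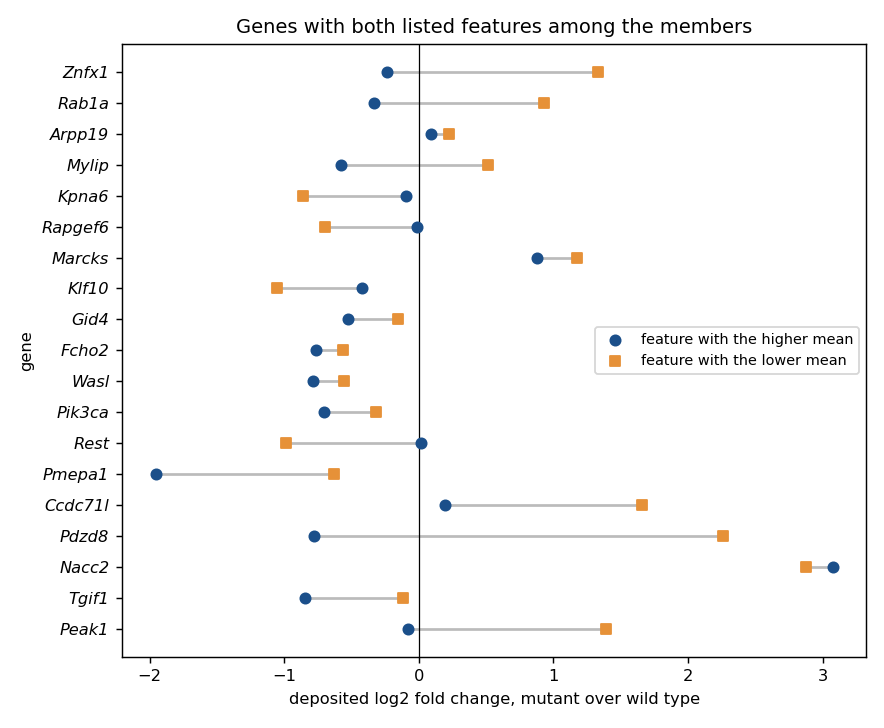
Deposited log2 fold changes, mutant over wild type, of both features of the 19 genes whose features are both members, 1 row a gene. The features lie on opposite sides of 0 in 6 genes, and the widest gap is in Pdzd8, at -0.78 and 2.26.

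The comparison of Bim3'UTRmut/mut with wild type asked whether Ago2 binding elsewhere differed when the Bim 3' UTR was mutated. No member passed an adjusted p of 0.05 by Benjamini-Hochberg adjustment of the authors' deposited p-values, and 0% of the 2548 features did. The smallest adjusted p of a member was 0.165, for Pkd2. With 2 libraries a group, the p-values measure the spread between these few lines. At an unadjusted p under 0.05 in the authors' deposited table, 17 members (4.49%) were higher in the mutant and 8 (2.11%) lower. The background over all features was 7.57% higher and 0.903% lower, or 8.48% in either direction.

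Of the 17 members on the higher side, 16 had a mean under 15 once Mb was left out. In all, 45 members fell under 15 without Mb, and 41 of these had a deposited log2 fold change above 0. Among the 334 that kept a mean of 15 or more over Wa, Wb and Ma, 1 was higher at an unadjusted p under 0.05, Pcbp1, and 8 were lower. Pcbp1, an RNA-binding protein gene, held 30.7, 14.7, 42.1 and 243.2 normalized reads. A minimum mean without Mb takes out features that were high in Mb alone, while the deposited p still used Mb. The small number on the higher side was thus largely set by that minimum. These counts were chosen after the data were seen.

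The members with the smallest p on the higher side were read almost only in Mb. Pkd2 encodes the cation channel polycystin-2 and is on the list of miR-17 family targets. It had 1, 0, 1 and 76 reads in the 4 libraries, and Mb stood at 168.0 normalized reads with an interval from 132.4 to 210.3. The authors' deposited table lists it at a log2 fold change of 5.57 with a derived SE of 1.39 (p = 6.5e-05, 0.165 after Benjamini-Hochberg adjustment). Ma thus held a single read, as Wa did.

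Lsm8, a gene of the nuclear ring that binds U6 RNA and listed as Naa38, held 1, 1, 3 and 32 reads. F3 held 1, 1, 1 and 44 reads, and Naa60, an N-terminal acetyltransferase gene, held 3, 3, 3 and 27. The authors' deposited table gives log2 fold changes of 4.69, 4.66 and 3.45, with Benjamini-Hochberg adjusted p of 0.266, 0.266 and 0.531. In normalized reads Ma was above both wild-type libraries in all 3 genes, at 4.86, 1.62 and 4.86, but on 1 to 3 reads. At most 3 reads in Wa, Wb and Ma together were held by 6 members, among them Lurap1l, Pkd2, F3, Cxcl12 and Atp11a. Cxcl12, a chemokine gene of stromal cells, held 34 reads in Mb, and Vim, the intermediate filament gene vimentin, held 15, 8, 6 and 47 reads.

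Chtf8 held more reads in Ma than these members, though its mean too was under 15 once Mb was left out. It encodes a subunit of the clamp loader that serves sister chromatid cohesion, and it held 8, 7, 10 and 22 reads. Its levels were 2.17 and 6.45 normalized reads in wild type and 16.2 and 48.6 in the mutant. Both mutant-side libraries were higher than both wild-type ones, though the interval in Ma, from 7.76 to 29.8, overlapped that in Wb, from 2.59 to 13.3. The authors' deposited table puts its log2 fold change at 2.64 with a derived SE of 0.958 (p = 0.00596, 0.531 after Benjamini-Hochberg adjustment).

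On the lower side, Fbxo21, a subunit gene of an SCF ubiquitin ligase, had the smallest p. It held 103, 28, 4 and 1 reads, or 28.0, 25.8, 6.47 and 2.21 normalized reads. The intervals of Ma, from 1.76 to 16.6, and Mb, from 0.056 to 12.3, lay below those of Wa and Wb, which began at 22.8 and 17.1. Its entry in the authors' deposited table is a log2 fold change of -2.29 with a derived SE of 0.954 (p = 0.0164, 0.561 after Benjamini-Hochberg adjustment).

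Tmem50b, a small membrane protein gene, held 307, 221, 26 and 2 reads, or 83.4, 203.6, 42.1 and 4.42 normalized reads. Pmepa1, a feedback inhibitor of TGF-beta signalling, held 108.2, 32.2, 16.2 and 15.5. Serinc5, a gene for a membrane protein that restricts retroviruses, held 45.4, 27.6, 9.71 and 8.84. Suz12, a core subunit gene of Polycomb repressive complex 2, held 18.8, 34.1, 6.47 and 4.42. In all 4 genes both mutant-side libraries lay below both wild-type ones, though the genes were picked for a small p in this same comparison. In Tmem50b, Wa and Wb differed by more than Wa and Ma did. Without Mb, the limma voom log2 fold changes of the 4 genes, in the order named, were -1.55, -1.90, -1.81 and -1.75. The Wa, Wb and Ma reads behind these values also entered the choice of the genes, so the values are no independent check. In the authors' deposited table their log2 fold changes were -2.26, -1.95, -1.82 and -2.00, each with an adjusted p of 0.561 by Benjamini-Hochberg adjustment. Pmepa1 has a second member feature, whose deposited log2 fold change was -0.63.

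Counting members whose libraries did not overlap, 34 (8.97%) had both mutant-side libraries above both wild-type ones and 88 (23.2%) had both below. Over all features the shares were 13.1% and 20.1%, and in the 95 features past the same minimum mean in genes with 3 or more features they were 8.42% and 24.2%. The 88 included Gab1, Znfx1, Tsg101, Fnip1, a folliculin partner in nutrient sensing, Prkar1a, a regulatory subunit of protein kinase A, Ccng2, an unconventional cyclin, and E2f1, a transcription factor of S phase entry. E2f1 held 80.2, 95.8, 64.7 and 57.5 normalized reads. Marcks, a substrate gene of protein kinase C, had both of its features among the 34, the higher one at 72.3, 30.4, 90.6 and 108.3. Mylip and Znfx1 each had their second feature among the 34.

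The deposited log2 fold change was below 0 for 265 members (69.9%) and above 0 for 114, with a median of -0.36. The median was -0.07 over all 2548 features and -0.28 over the 95 features past the same minimum mean in genes with 3 or more features. In a limma voom fit of the recovered reads the median of the members was -0.61 with all 4 libraries, against 0.05 over all features. Without Mb it was 0.04 against 0.15, so the members still lay below the table as a whole, by less. That fit called 0 members at an adjusted p of 0.05 with all 4 libraries, where 0% of all features were called. At an unadjusted p under 0.05 it had 7 members higher and 2 lower, against 2.94% and 0.157% of all features.

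Without Mb, the same limma voom fit called 0 members at an adjusted p of 0.05 (0% of all features). At an unadjusted p under 0.05 it had 4 higher and 2 lower, against 1.57% and 0.196% of all features. Without Ma, where Mb alone stood for the mutant, 48 members passed an adjusted p of 0.05, against 14.3% of all features. Of these, 29 were higher, against 13.2% of all features, and 19 were lower, against 1.06%. At an unadjusted p under 0.05, 37 members were higher and 91 lower without Ma, against 18.6% and 4.55% of all features. In the fits without Ma or without Mb the lone mutant-side library was assumed to vary as the wild-type ones did.

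**Figure D4:**
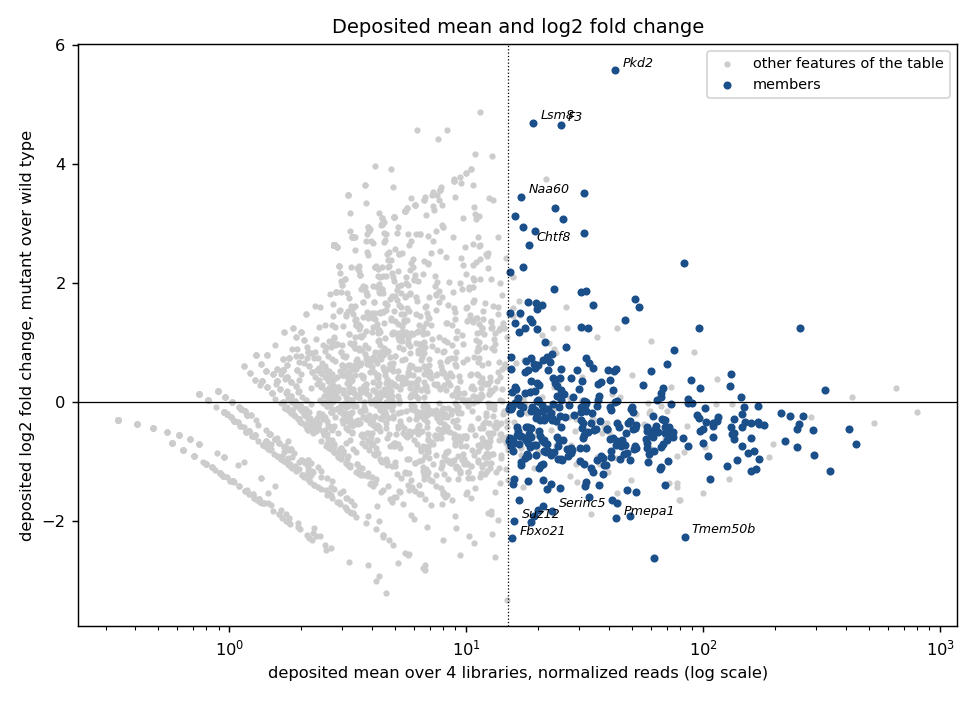
Deposited mean over the 4 libraries (log scale, normalized reads) against the deposited log2 fold change, mutant over wild type, 1 point a feature. Members begin at a mean of 15, and 265 of 379 lie below 0, while no member passes an adjusted p of 0.05.

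Gene lists were described by counts, since no member of any list passed an adjusted p of 0.05 by Benjamini-Hochberg adjustment of the authors' deposited p-values. Each list's members are set against its features of any mean, so the choice by mean enters every such contrast. Of all members, 69.9% lay below 0, with a median of -0.36, against 52.5% and -0.07 over all features. Whether any list differed from the members as a whole was not tested. The list of transcription factors was the longest, with 28 members, of which 22 lay below 0 in deposited log2 fold change, and its median was -0.43 against -0.17 for that list over the whole table. The medians of the list's log2 ratios to the wild-type mean were -0.001 in Ma and -1.67 in Mb. It held Zfp84, Klf9, Mycn and Zbtb18, a repressor listed as Zfp238, with 122.6, 108.7, 144.1 and 11.1 normalized reads in Wa, Wb, Ma and Mb. Kinases and phosphatases had 19 members, 14 below 0, with a median of -0.65 against 0.08 over the table. Their median ratio to wild type was -0.10 in Ma and -1.68 in Mb. Among these were Prkar1a, at 192.9, 210.0, 145.7 and 68.5, and Ppp1r16b. Transporters and transmembrane proteins had 17 members, 11 below 0, with a median of -0.29 against -0.30, and the median ratios were -0.15 in Ma and -0.08 in Mb. Atp7a, a copper pump gene, held 80.4, 70.9, 45.3 and 77.4 in that list.

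Small GTPases and their regulators had 16 members, 12 below 0, with a median of -0.23 against 0.17 over the table, and median ratios to wild type of -0.17 in Ma and -1.24 in Mb. Sos1, the exchange factor gene for Ras, held 84.5, 58.9, 35.6 and 11.1 normalized reads. Ubiquitin ligases and related genes had 14 members, 11 below 0, with a median of -0.39 against -0.19, and median ratios of 0.04 in Ma and -2.01 in Mb. Their highest members were Rnf44, at 244.0, 141.9, 254.1 and 42.0, and Klhl28, an adaptor gene of cullin-3 ligases, at 207.1, 224.8, 207.2 and 15.5. Membrane trafficking had 9 members, 7 below 0, with a median of -0.65 against -0.27, and median ratios of 0.12 in Ma and -0.90 in Mb. Beside Vps37a and Vps29 it held Stx6, a SNARE gene of the trans-Golgi network, at 146.7, 152.0, 161.9 and 79.6.

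RNA-binding genes had 10 members, 6 below 0, with a median of -0.39 against -0.17 over the table, and median ratios to wild type of 0.27 in Ma and -1.97 in Mb. Srsf6, a splicing factor gene, held 155.4, 150.1, 182.9 and 37.6 normalized reads. Chromatin genes had 10 members, 6 below 0, with a median of -0.12 against -0.09, and median ratios of 0.11 in Ma and -0.33 in Mb. Baz2a, which silences ribosomal RNA genes, held 194.8, 129.9, 181.3 and 35.4, and Smarca2, an ATPase gene of SWI/SNF remodellers, held 47.6, 43.3, 32.4 and 33.2. Cell cycle genes had 7 members, 5 below 0, with a median of -0.07 against -0.19, and median ratios of 0.43 in Ma and -2.15 in Mb. The cytoskeleton list was alone among those of 5 or more members in having a median above 0, at 0.20 against 0.27 over the table, with 5 of 10 members below 0, and its median ratios were 0.48 in Ma and 0.32 in Mb. It held Myo5a, a vesicle motor gene, at 156.3, 98.6, 161.9 and 24.3. These lists were drawn by the start of gene symbols, so a few genes of other function enter, such as Mylip and Ankrd9 in the cytoskeleton list. Translation and chaperone genes had 1 member each, Eif5b and Dnaja1.

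**Figure D5:**
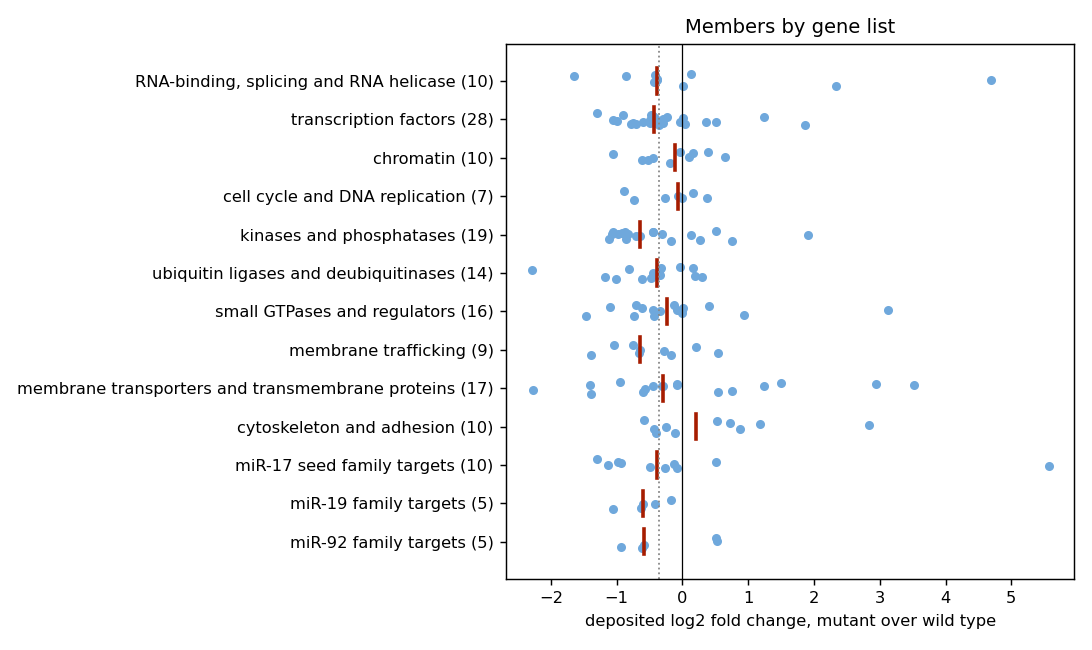
Deposited log2 fold change, mutant over wild type, of each member of a gene list, 1 point a feature and 1 row a list, with the list's median. The medians lie below 0 in most lists, and the kinase and trafficking lists are lowest at -0.65 among those of 9 or more members.

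The microRNA families of the sequences above were represented by genes that the literature names as their targets. Of 67 names for the miR-17 family, 10 members were found, 8 of them below 0 in deposited log2 fold change, and the median was -0.38. The median for that list over the whole table was -0.38 as well, and the members' median ratios to wild type were -0.34 in Ma and -0.70 in Mb. The members were E2f1, Tnfrsf21, Pkd2, Phlpp2, Ptpn4, Stat3, Cdkn1a, Smad7, Mink1 and Tmem127. Tnfrsf21, the death receptor gene DR6, held 93.8, 94.9, 71.2 and 2.21 normalized reads. Phlpp2, a phosphatase gene of growth signalling, held 57.6, 28.6, 59.9 and 17.7. Stat3, a transcription factor of cytokine signalling, held 16.6, 45.1, 4.86 and 17.7. Apart from Pkd2, these members were read in the wild-type libraries and in Ma. The rule largely fixed this, since a member not carried by Mb must be read elsewhere to reach the minimum mean. For Stat3 the value in Ma, 4.86, was no higher than a count of 0 there allows.

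For the miR-19 family, 5 member features of 4 genes were found, all below 0, with a median of -0.60 against -0.42 for that list over the table. Their median ratios to wild type were -0.11 in Ma and -1.70 in Mb. They were Fnip1, both features of Klf10, a TGF-beta induced transcription factor gene, Wdr20, a cofactor of deubiquitinases, and Ppp2r5e, a subunit of protein phosphatase 2A. Fnip1 held 201.6, 184.2, 145.7 and 103.9 normalized reads. Thbs1 and Ctgf, also on the miR-19 list, were left out of the members by gene name. They were read only in Mb, with deposited log2 fold changes of 1.25 and 1.24. The count of members below 0 thus depends in part on which names were left out. Over the table, 15 features of that list lay above 0 and 26 below. For the miR-92 family, 5 features of Ube2w, Mylip, Klf2 and Sertad3 were found, 3 below 0, with a median of -0.58 against -0.19 over the table, and median ratios of 0.07 in Ma and -1.67 in Mb. Ube2w, a ubiquitin-conjugating enzyme gene, held 157.6, 175.9, 174.8 and 30.9, and Klf2, a transcription factor gene of lymphocyte quiescence, held 23.6, 71.8, 16.2 and 128.2.

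The other families had 3 member features or fewer. Ccng2 and Plagl2 stood for let-7, and Ccng2 held 107.9, 111.5, 100.4 and 24.3 normalized reads. Pafah1b2 and Smad7 were among those for miR-15 and miR-16, both features of Wasl, an activator of actin branching, stood for miR-142, Lif for miR-181, and Smad5 for miR-155. Mycn and Acsl1 stood for the joint list of miR-150 and miR-34. Wasl held 70.9, 58.9, 35.6 and 37.6 at its first feature and 28.8, 11.1, 21.0 and 4.42 at its second.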

How the data were processed

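Ago2 PAR-CLIP of 2 wild-type and 2 Bim3'UTRmut/mut lines was analysed. Per the submitters' processing notes, CASAVA 1.8.2, BWA 0.7.12-r1039 and DESeq2 were used, with builds mm9 and NCBIM37; how features were called and whether PCR copies were removed is not given in the sources used here. Per the file headers, the deposited table holds a mean signal of normalized reads over all libraries, a log2 fold change and an unadjusted p-value from the authors' DESeq2 comparison. Mutant over wild type is the order of the table's name.

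Benjamini-Hochberg adjustment ran over all 2548 features. Standard errors were derived from the fold change and p, assuming a Wald test. Each mean was solved for whole reads: a single solution existed for all 2548 (misfit at most 5.12e-13), and 0 of 1800 shifted means had any. The sides gave the deposited sign for 98.8% of features, against 67.6% for the next split. Recovery and limma 3.58.1 in R 4.3.3 were tested on simulated data. Symbols follow RefSeq, which renamed 41 members.

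Members and gene lists were chosen with earlier results of these data known. Named were the 12 highest members, the 5 smallest p each way, the 5 lowest and highest spreads, those next to the minimum, 6 genes with both features and up to 4 per list. Others were chosen after their values were seen. A few named features are not reported here.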

Additional observations from a re-analysis of the deposited data

How the results depend on the processing

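The number of members was 207 at a mean of 30 or more and 243 in genes with 1 listed feature. No member passed the adjusted p at a threshold of 0.1, without duplicate rows or with limma voom on all 4 libraries; leaving out 1 library gave 0 to 48, the 48 without Ma among 364 of all features. Members higher at an unadjusted p under 0.05 numbered 7 of 75 features with limma voom, 4 of 40 (without Mb) to 37 of 475 (without Ma) with 1 library left out, and 1 among members that kept their mean without Mb, the last chosen after the data were seen. Lower members numbered 2 of 4 features with limma voom and 0 of 0 (without Wb) to 91 of 116 (without Ma) with 1 library left out. The median log2 fold change stayed between -0.30 and -0.61 under the other minimums, pseudocounts, library totals and limma voom. It ran from -1.18 without Ma to 0.04 without Mb. Library totals moved the median of all features from -0.08 to 0.06.

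Of 40 named log2 fold changes, limma voom on all 4 libraries turned 3: Arpp19 at -0.47 and -0.70 for its features and Zfp275 at 0.006. Leaving out 1 library gave ranges across 0 for further members. These ran for Elovl5 from -2.84 to 0.12, Zfp84 from -1.75 to 0.25, Laptm4a from -0.20 to 0.68, Klf9 from -2.21 to 0.32 and Rhebl1 from -3.30 to 0.46. They ran for Pcmtd1 from -5.60 to 1.33, Smad5 from -3.80 to 0.019, Mitd1 from -1.82 to 0.47, Rab1a feature 1 from -1.24 to 0.18 and Arpp19 feature 1 from -2.41 to 1.20. Further ranges were, for Mylip feature 1 from -2.50 to 0.19, Kpna6 feature 1 from -1.95 to 0.67, Rapgef6 feature 1 from -2.27 to 0.84, Zfp275 from -0.21 to 0.19 and Rab1a feature 2 from -0.73 to 1.84. The others ran for Kif5b from -0.22 to 0.078 and Arpp19 feature 2 from -3.63 to 1.46. Without Mb 13 of the 40 changed sign, and without Ma 3 did, while 14 passed the threshold.

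Counting depth limits Mb most, with a median of 8 reads a member. Planned refits with edgeR and DESeq2 were not run; limma voom on the recovered reads was used in their place. No paired analysis was possible because the deposited columns carry no replicate numbers. The cause of each change was not tested.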
